A study of Mus musculus with 6 samples.

Results

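The genes described are 10 components of the mammalian circadian clock and its first layer of output, Clock, Per1, Per2, Per3, Cry1, Cry2, Dbp, Tef, Nfil3 and Ciart, chosen by symbol from the 49315 genes of the count table. All 10 were found in it and all 10 passed the filter on low counts. The miR-206 group (3 libraries) was GFP-positive mouse hepatocytes carrying a transposon plasmid in which the promoter of Ttr, a hepatocyte gene, drives miR-206 and GFP together. The control group (3 libraries) was GFP-negative hepatocytes. By the design text both were sorted from the livers of 3 male C57BL/6J mice, aged 8 weeks when they received 20 µg of that plasmid by hydrodynamic injection, together with 0.8 µg of a CMV plasmid that supplies Sleeping Beauty transposase. The livers were perfused 4 weeks later. The sample labels instead give the control cells an empty vector, and the counts do not show which holds. Nothing in the labels ties a library to a mouse, so p-values measure the spread between these libraries. The time of day of collection is not given in the sources used here.

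In the clock, CLOCK and its partner BMAL1 (encoded by Arntl) bind E-box elements and activate the Per and Cry genes, whose proteins return to the nucleus and repress CLOCK and BMAL1. The same E-boxes drive Dbp, Tef and Ciart, and drive Nr1d1 and Nr1d2, whose REV-ERB proteins repress Arntl, Clock and Nfil3. DBP and TEF activate genes through D-box elements, to which NFIL3 binds as a repressor, and in liver these factors time the daily output of metabolic and detoxifying enzymes. In mouse liver the Per genes, Dbp, Tef, Ciart and Nr1d1 peak late in the day and towards evening, and Arntl, Npas2, Clock, Nfil3 and Cry1 towards night's end and morning.

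Total counts ran from 4157947 to 5724329 in the miR-206 libraries and from 8966590 to 15244017 in the controls. Mitochondrially encoded genes took 11.2% to 63.8% of counts in the miR-206 libraries and 9.16% to 36.0% in the controls. Control 1 stood apart from the other controls, with a correlation of log2 values across genes of 0.887 and 0.890 with them, against 0.981 between those 2. Olfactory and vomeronasal receptor genes, which hepatocytes are not known to express, gave 3.73 to 5.50 counts per exonic kb in the miR-206 libraries and 1.27 to 3.08 in the controls, and this background was measured for every member. Mir206 was counted at 0 in all 6 libraries, and in libraries made with an mRNA kit that count does not measure the mature microRNA. Hepatocyte markers (19 of the 20 listed were in the table) summed to 19509 to 52153 scaled CPM in the miR-206 libraries and 71065 to 170622 in the controls, where scaled CPM is the count over the library size and its TMM factor, in the usual CPM unit. No marker of any list was at 0 in all miR-206 libraries.

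Of the 10 clock genes, 8 fell in miR-206 cells in edgeR's quasi-likelihood test at a Benjamini-Hochberg adjusted p under 0.05: Per1, Per2, Cry1, Cry2, Dbp, Tef, Nfil3 and Ciart. Across all 24382 genes tested 29.6% were lower and 25.8% were higher. No member was higher: all 10 log2 fold changes were negative, so that 0 were higher at an unadjusted p under 0.05, and DESeq2 also called 0. The median log2 fold change of the members was -2.57, against 0.45 over all genes tested. That puts the members' median at -3.03 relative to that of all genes. The median of all genes takes in genes near the background, which gave more counts per kb in the miR-206 libraries. On the genes with a mean count of 10 or more times the background, the members' median was -0.27 relative to that of all. Only 4 members were kept there, through their controls alone, and 2 of them lay under that median. In 8 members every miR-206 library lay under every control in scaled CPM, a pattern that 30.3% of all genes showed, while 36.7% showed its opposite. Those 8 included Per3 and left out Cry1 and Clock. In bulk RNA, a lower count can come from fewer cells that express a gene or from less RNA per cell, which cannot be told apart here.

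**Figure D1:**
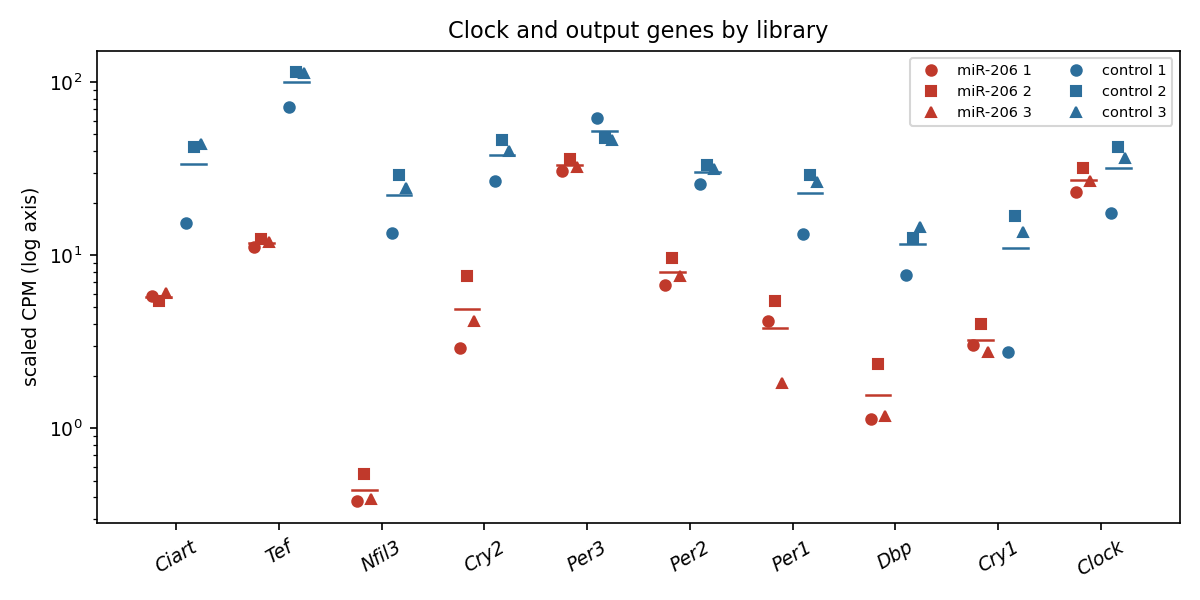
Scaled CPM (log axis) of the 10 clock genes in each library, miR-206 (red) left of control (blue), ordered by control level per kb; each point is 1 library and each line the mean of 3. The miR-206 points lie under all control points in 8 genes, and Nfil3 shows the widest gap, with 0.439 ± 0.0924 scaled CPM in miR-206 cells and 22.4 ± 8.11 in controls (SD, n = 3 each).

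How many members fell depended on how the libraries were scaled. With each library scaled on its summed hepatocyte marker counts, the median log2 fold change of all genes moved to 2.27, with 13358 genes higher and 943 lower. Nfil3 alone among the members was then lower (-3.62, adjusted p = 0.00247, edgeR) and Clock was higher (2.01, adjusted p = 0.00540). Scaled by library size alone the median of all genes was 1.47, with 11642 genes higher and 3774 lower, and with upper-quartile factors it was 1.25, with 10629 higher and 4812 lower. Either way 7 members fell. Under each of these scalings all 10 members stayed under the median of all genes, with the members' median at -2.91 to -2.63 relative to it.

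Clock encodes the activator at the head of the loop. It (chr5:76209868-76304792, minus strand, GRCm38) had 183, 176 and 204 counts in the miR-206 libraries and 132, 407 and 322 in the controls, or 27.3 ± 4.46 and 32.0 ± 13.0 scaled CPM (SD, n = 3 each). The groups overlapped, with control 1 the lowest of the 6 libraries on the scaled measure. The log2 fold change was -0.23 (SE 0.38, adjusted p = 0.598, edgeR). Without control 1 it was -0.61 (adjusted p = 0.0114), with hepatocyte scaling, library size alone and upper-quartile factors it was positive at 2.01, 0.86 and 0.68, and after background subtraction it was 0.35. Its counts were 2.42, 3.44 and 2.73 times the expected background in the miR-206 libraries.

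The Period genes encode the repressors that enter the nucleus with the cryptochromes. Per1 (chr11:69095217-69109960, plus strand) had 33, 30 and 14 counts in the miR-206 libraries, against 101, 279 and 235 in the controls. It averaged 3.82 ± 1.84 scaled CPM in miR-206 cells and 23.0 ± 8.42 in controls (SD, n = 3 each), a fall of 6.07-fold with no overlap (log2 fold change -2.60, SE 0.46, adjusted p = 0.00131, edgeR). Per1 counts were 1.07, 1.43 and 0.456 times the expected background in the miR-206 libraries, so that the miR-206 level is near what genes hepatocytes do not express give per kb.

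Per2 (chr1:91415982-91459324, minus strand) had 53, 53 and 58 counts in the miR-206 libraries, against 196, 320 and 279 in the controls. Its mean was 7.98 ± 1.51 scaled CPM in miR-206 cells and 30.2 ± 3.84 in controls (SD, n = 3 each), 3.80-fold lower (log2 fold change -1.93, SE 0.31, adjusted p = 0.000756, edgeR). Both groups were tight and clearly apart, and the miR-206 counts were 1.65 to 2.43 times the background. With hepatocyte scaling the Per2 value was 0.16.

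Per3 (chr4:151003652-151044665, minus strand) was the Period gene that did not pass the test. It had 243, 199 and 247 counts in the miR-206 libraries, against 469, 458 and 408 in the controls, and averaged 33.1 ± 2.81 and 51.9 ± 8.74 scaled CPM (SD, n = 3 each). Every miR-206 library was under every control, yet the log2 fold change of -0.65 missed the threshold (SE 0.33, adjusted p = 0.110, edgeR). It passed without control 1 (-0.58, adjusted p = 0.0119) and in DESeq2 (-0.76, adjusted p = 0.0301). At 4.60, 5.55 and 4.72 times the background, Per3 stood highest of the 10 over background in each miR-206 library. Its direction depended on the scaling, since it was 1.25 with hepatocyte scaling, 0.37 with library size alone and 0.16 with upper-quartile factors.

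Clock, Per2 and Per3 are also the members whose longest annotated 3′ UTR holds a match to the miR-206 seed. The mature microRNA, mmu-miR-206-3p, lies at chr1:20679055-20679076 on the plus strand, and in its RefSeq sequence below the seed (bases 2 to 8) is in capitals. The matches are shown with their surroundings on the transcript strand, with the pairing bases, and the A that completes an 8mer, in capitals. The Clock match is at chr5:76212126-76212154, that of Per2 at chr1:91417284-91417313 and that of Per3 at chr4:151005311-151005340, all on the minus strand of GRCm38.
mmu-miR-206-3p: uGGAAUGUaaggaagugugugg
Clock: cataccacactACATTCCttggttttttt
Per2: tgtggtggtcaACATTCCAgtctgacatgg
Per3: ctgatggtaagACATTCCAgctttctctca
The match in Clock covers 7 bases in a 3′ UTR of 6831 bases, and those in Per2 and Per3 are 8mers in UTRs of 1889 and 2224 bases. Such a match was found in 2117 of 21039 genes with a 3′ UTR (10.1%). The other 7 members, in whose UTRs these letters do not occur, have UTRs of 261 to 3182 bases. The members with a match had log2 fold changes of -0.23, -1.93 and -0.65, and those without ran from -5.65 to -1.77. A match is a description of the sequence and not a measured site.

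The cryptochromes are the stronger repressors of the loop. Cry2 (chr2:92403646-92434043, minus strand) had 23, 42 and 32 counts in the miR-206 libraries, against 204, 448 and 354 in the controls. It averaged 4.91 ± 2.45 scaled CPM in miR-206 cells and 37.8 ± 9.96 in controls (SD, n = 3 each), 7.79-fold lower with no overlap (log2 fold change -2.96, SE 0.42, adjusted p = 0.000486, edgeR). In the miR-206 libraries Cry2 was at 0.662, 1.78 and 0.929 times the background.

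Cry1 (chr10:85131700-85185064, minus strand) had 24, 22 and 21 counts in the miR-206 libraries, against 21, 162 and 120 in the controls, or 3.26 ± 0.656 and 11.1 ± 7.35 scaled CPM (SD, n = 3 each). Control 1 was as low as the miR-206 libraries, and only controls 2 and 3 were above them. The log2 fold change was -1.77 (SE 0.58, adjusted p = 0.0262, edgeR). The call held without control 1 (-2.31, adjusted p = 1.37e-06) and was lost when any other single library was left out (adjusted p from 0.0561 without miR-206 2 to 0.0926 without control 2). It was also lost with library size alone (-0.62) and with upper-quartile factors (-0.81), and after background subtraction, where the fold was larger (-2.29, adjusted p = 0.0615). With hepatocyte scaling the value was 0.61.

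Dbp and Tef encode activators of D-box genes and are direct E-box targets. Dbp (chr7:45705088-45710203, plus strand) had 9, 13 and 9 counts in the miR-206 libraries, against 58, 122 and 128 in the controls. Its mean was 1.56 ± 0.697 scaled CPM in miR-206 cells and 11.6 ± 3.54 in controls (SD, n = 3 each), 7.55-fold lower (log2 fold change -2.92, SE 0.46, adjusted p = 0.000777, edgeR). The groups were apart, but in the miR-206 libraries Dbp was only 0.547, 1.16 and 0.552 times the background. Dbp shares 18% of its exonic bases with Sphk2 on the opposite strand, and with the strand setting of the counting unknown some of its reads may be from either gene.

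Tef (chr15:81802421-81826863, plus strand) had the highest mean of the members over the 6 libraries through its controls, while in miR-206 cells Per3 and Clock were higher in scaled CPM. It had 88, 68 and 91 counts in the miR-206 libraries, against 546, 1100 and 992 in the controls, or 11.8 ± 0.626 and 99.6 ± 23.8 scaled CPM (SD, n = 3 each). The fall was 8.43-fold with no overlap (log2 fold change -3.08, SE 0.39, adjusted p = 0.000327, edgeR), and its miR-206 counts were 2.03 to 2.32 times the background. It passed in each of the 6 fits that left out a single library, at -3.34 to -3.04. The 5 genes most like Tef over the 6 libraries, by the root mean squared difference of centred log2 CPM among 11316 candidates, were Cnn3 (0.051), Stx7 (0.063), Gpr137 (0.064), Btg2 (0.069) and Ran (0.071).

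Nfil3 (chr13:52967209-52981073, minus strand), the repressor at D-boxes, fell furthest of the 10. It had 3, 3 and 3 counts in the miR-206 libraries, against 102, 282 and 217 in the controls. The summed counts were 9 and 601, a ratio of 0.0185 after scaling to library size and TMM factor (95% counting interval 0.00843 to 0.0354). The log2 fold change was -5.65 (SE 0.48, adjusted p = 0.000271, edgeR). In the miR-206 libraries Nfil3 was at 0.269, 0.397 and 0.272 times the expected background, under the average given per kb by receptor genes, and in the controls it was at 16.3, 95.8 and 84.2 times. It was the only member lower in all 15 alternative fits made without a minimum of 10 times the background. Adjusted p in these ran from 1.90e-16 (DESeq2) to 0.00497 (edgeR, without miR-206 2). Nfil3 entered fits with that minimum through its controls alone, so they are no test of it.

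Ciart (chr3:95878503-95882251, minus strand), which encodes a repressor of CLOCK and BMAL1, had 46, 30 and 46 counts in the miR-206 libraries, against 116, 406 and 388 in the controls. It averaged 5.77 ± 0.286 scaled CPM in miR-206 cells and 33.8 ± 16.03 in controls (SD, n = 3 each), 5.85-fold lower with no overlap (log2 fold change -2.55, SE 0.42, adjusted p = 0.000983, edgeR). The miR-206 libraries were close to each other, while control 1 was well under the other controls. Its miR-206 counts were 3.70, 3.56 and 3.73 times the background.

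**Figure D2:**
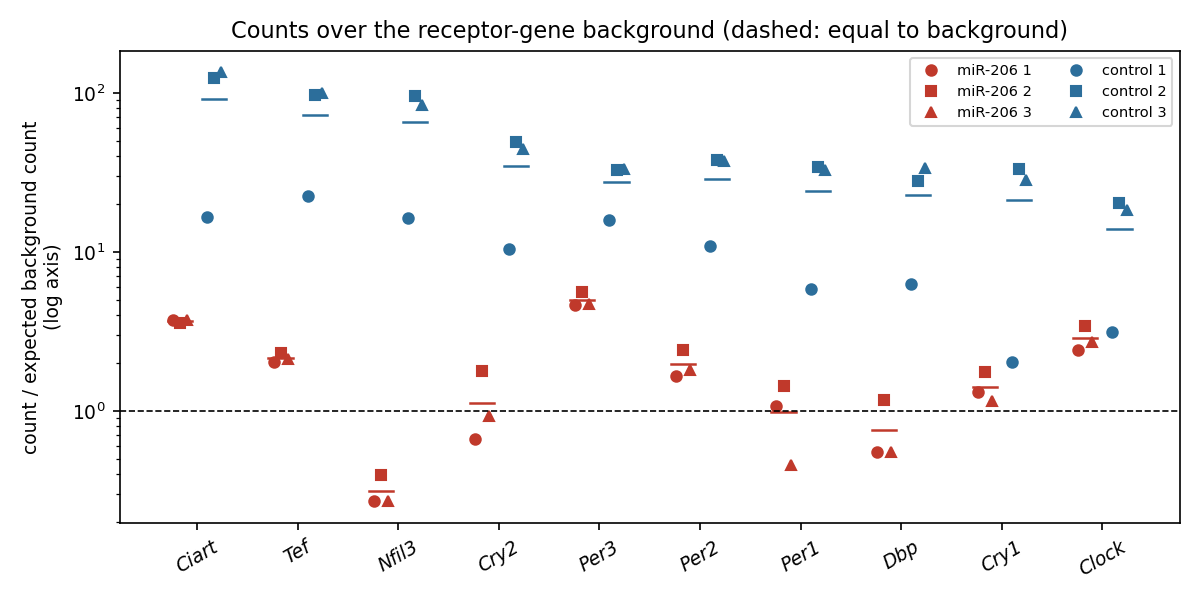
Count of each clock gene divided by the count expected from the receptor genes of the same library (log axis), miR-206 (red) left of control (blue); each point is 1 library, each line the mean of 3, and the dashed line marks a count equal to the background. In the miR-206 libraries Per1, Cry2, Dbp and Nfil3 lie around or under the line, and Per3 and Ciart lie highest.

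On the assumption that background adds the same counts per kb to every gene, a fit was also made after subtracting it, on the 4170 nuclear protein-coding genes with a mean count of 10 or more times the expected background. In that fit 15.5% of genes were lower and 19.3% were higher, with a median log2 fold change of -0.14. The median member was at 1.48, 2.05 and 1.49 times the background in the miR-206 libraries, against 10.7, 35.9 and 35.5 times in the controls. Per3, Tef, Nfil3 and Ciart passed the minimum, each through its controls alone, since none reached 10 times the background in any miR-206 library. Passing the minimum therefore depended on the difference itself, and their values are a description with no test. In that fit the log2 difference was 1.88 (SE 0.45) for Per3, 0.15 (SE 0.32) for Ciart and -0.96 (SE 0.27) for Tef, and Nfil3 had 0 counts left in each miR-206 library. Per3 was there on the other side of 0 from its deposited counts. With subtraction alone, without the minimum, Per3 was at -0.016, Ciart at -1.92 and Tef at -2.95. These fits also differ in the genes that set the TMM factors, so the values with the minimum do not show subtraction alone.

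Levels can be compared between genes per exonic kb. In miR-206 cells the order by scaled CPM per kb was Per3 (3.44 ± 0.292), Ciart (2.55 ± 0.127), Clock (1.99 ± 0.325), Tef (1.501 ± 0.0795), Per2 (1.36 ± 0.257), Cry1 (0.977 ± 0.196), Cry2 (0.777 ± 0.387), Per1 (0.679 ± 0.326), Dbp (0.521 ± 0.233) and Nfil3 (0.217 ± 0.0456), as mean ± SD of 3 libraries. Neighbours from Tef down to Dbp overlapped between libraries, and the other neighbours did not. In controls the order was Ciart (14.95 ± 7.09), Tef (12.7 ± 3.02), Nfil3 (11.1 ± 4.002), Cry2 (5.99 ± 1.58), Per3 (5.40 ± 0.910), Per2 (5.16 ± 0.656), Per1 (4.08 ± 1.495), Dbp (3.88 ± 1.18), Cry1 (3.31 ± 2.20) and Clock (2.33 ± 0.945), and all neighbours overlapped. Nfil3 thus stood last in miR-206 cells and near the top in controls, and Clock near the top in miR-206 cells and last in controls. These levels include background. In the miR-206 libraries Per1, Cry2, Dbp and Nfil3 were around or under it, and Clock was at 2.42 to 3.44 times the background.

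Ratios between genes in the same library carry no scaling factor. Nfil3 per kb was 0.111, 0.115 and 0.0996 of Clock in the miR-206 libraries, against 5.24, 4.69 and 4.57 in the controls, and after background subtraction it was 0 in each miR-206 library, against 7.23, 4.88 and 4.77. Tef was 0.839, 0.674 and 0.778 of Clock in miR-206 cells, against 7.22, 4.72 and 5.38 in controls, and Ciart was 1.53, 1.03 and 1.37 of Clock, against 5.34, 6.06 and 7.32. These ratios did not overlap between the groups, and control 1 lay with the other controls. Per3 over Clock was 1.90, 1.62 and 1.73 in miR-206 cells and 5.08, 1.61 and 1.81 in controls, where controls 2 and 3 were close to the miR-206 values and control 1 was not. Cry1 over Clock was 0.539, 0.514 and 0.423 in miR-206 cells and 0.654, 1.64 and 1.53 in controls.

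Genes that peak at opposite times of day were set against each other in the same way. Dbp over Arntl was 0.113, 0.2005 and 0.1701 in the miR-206 libraries, against 2.21, 3.04 and 4.02 in the controls, and Nr1d1 over Arntl was 0.341, 0.420 and 0.257, against 7.33, 4.28 and 5.56. With background subtracted, Dbp over Arntl was 0, 0.034 and 0 in miR-206 cells, against 2.86, 3.28 and 4.43 in controls, and Nr1d1 over Arntl was 0.17, 0.30 and 0, against 10.8, 4.68 and 6.18. The summed evening genes (Per1, Per2, Per3, Dbp, Tef, Ciart, Nr1d1, Nr1d2, Bhlhe41) over the summed morning genes (Arntl, Npas2, Clock, Nfil3, Cry1) were at 1.54, 1.60 and 1.95 in miR-206 cells and 4.24, 2.84 and 3.40 in controls. With background subtracted these sums were at 1.30, 1.40 and 2.05, against 4.78, 2.87 and 3.45. The groups stayed apart in both forms. Different genes led the morning sum in each group. In controls Nfil3 was its largest part, at a mean of 11.1 scaled CPM per kb, with Cry1 next at 3.31. In miR-206 cells Nfil3 was its smallest part, at 0.217, and Arntl the largest, at 3.21. Nfil3, listed with the morning genes, was lower under every scaling, whereas Arntl, listed with them too, was higher under every scaling. The collection time is not known here, and a difference in clock phase between the groups was not tested.

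**Figure D3:**
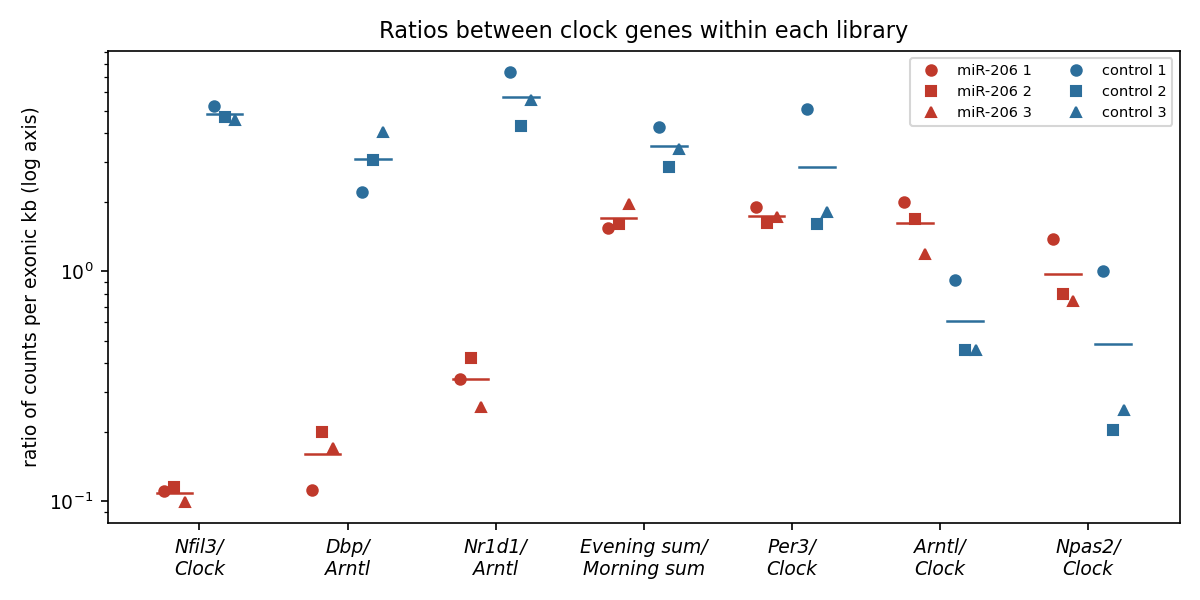
Ratios of counts per exonic kb between clock genes of the same library (log axis), miR-206 (red) left of control (blue); each point is 1 library and each line the mean of 3. The ratios of Nfil3 to Clock and of Dbp and Nr1d1 to Arntl are lower in all 3 miR-206 libraries, Per3 to Clock overlaps, and Arntl to Clock is higher in miR-206 cells (1.19 to 2.00, against 0.453 to 0.912).

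In the rest of the loop, 5 of 8 genes were lower and 2 were higher, with a median log2 fold change of -2.32. The higher ones were Arntl, the partner of Clock, and Npas2, its paralog. Arntl had 25.4, 29.6 and 17.4 scaled CPM in the miR-206 libraries, against 8.72, 10.5 and 9.06 in the controls (log2 fold change 1.35, SE 0.31, adjusted p = 0.00519, edgeR). Every miR-206 library was above every control, and the call held in 14 of 15 alternatives, the exception being the fit without miR-206 2 (adjusted p = 0.0561). Npas2 was higher by 1.14 (SE 0.42, adjusted p = 0.0382, edgeR). It passed in 8 of 15 alternatives and in only 1 of the fits that left out a single library, that without control 1. Npas2 counts were 3.34, 2.74 and 2.03 times the expected background in the miR-206 libraries, against 3.12, 4.17 and 4.59 in the controls. Those of Arntl were 4.86, 5.81 and 3.24 times, against 2.85, 9.24 and 8.36. After background subtraction alone both stayed higher (Arntl 2.28, adjusted p = 0.00210, and Npas2 1.80, adjusted p = 0.0428, edgeR). The lower ones were the REV-ERB genes Nr1d1 (-2.65) and Nr1d2 (-2.39), their competitor Rora (-2.28), the E-box repressor Bhlhe40 (-2.35) and Hlf (-3.40), the relative of Dbp and Tef. In the miR-206 libraries Hlf was under the background, at 0.626 to 0.741 times, and Nr1d1 around it, at 0.835 to 2.44 times. Nr1d2 was at 1.88 to 2.95 times, Rora at 2.07 to 2.16 and Bhlhe40 at 3.93 to 5.34. Over all genes 29.6% were lower and 25.8% higher. With hepatocyte scaling the 5 lower calls were lost (adjusted p from 0.136 for Hlf to 0.826 for Rora), while Arntl and Npas2 stayed higher.

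**Figure D4:**
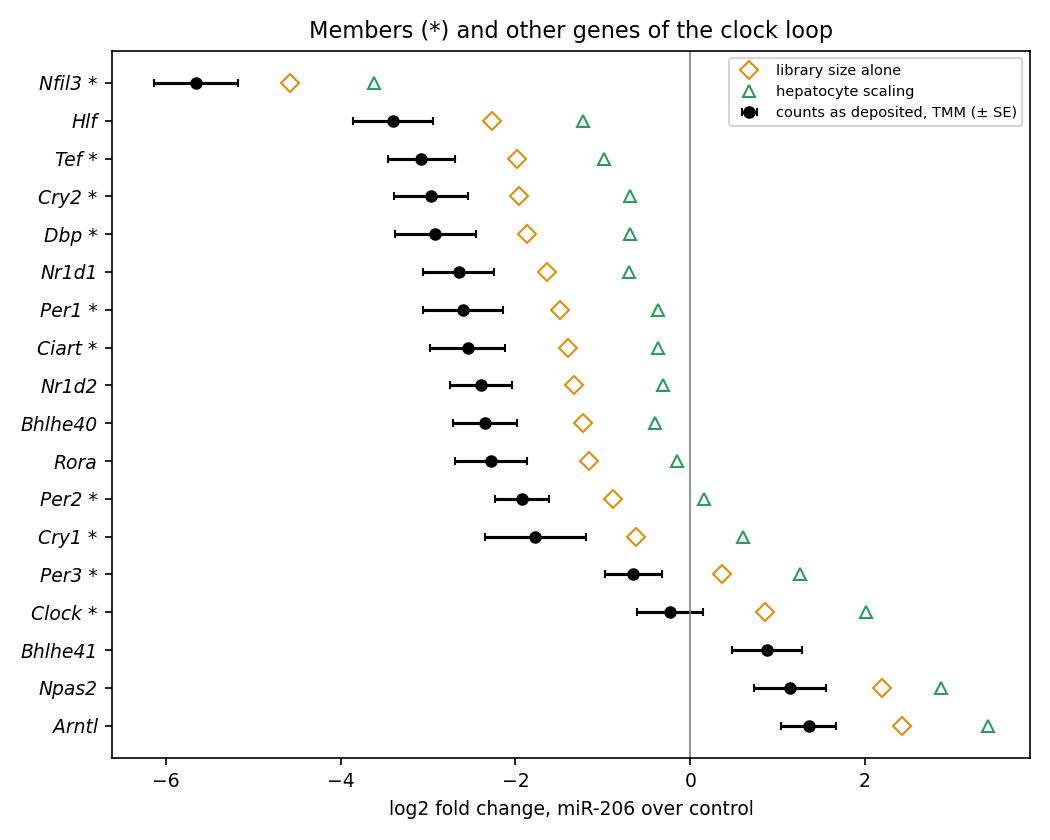
Log2 fold change, miR-206 over control, of the 10 members (starred) and 8 other loop genes. Black points are edgeR estimates on the deposited counts with TMM factors (bars, 1 SE), diamonds the same with library size alone and triangles with hepatocyte scaling (the alternatives are not drawn for Bhlhe41). The other scalings shift every gene drawn with them to the right and leave Nfil3 lowest and Arntl highest.

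Among 11 genes whose products modify clock proteins, 7 fell and 1 rose, with a median of -1.39, against 29.6% of all genes lower and 25.8% higher. Casein kinases that phosphorylate the PER proteins, Csnk1d (-2.71), Csnk1e (-1.39) and Csnk1a1 (-1.77), were lower, as were the ubiquitin ligase gene Fbxw11 (-1.19), Cipc (-2.26), whose product inhibits CLOCK, Nono (-3.11), whose product binds the PER proteins, and Usp2 (-3.96). Usp2 encodes a deubiquitinase that is itself rhythmic in liver. In the miR-206 libraries Csnk1e was under the background, at 0.607 to 0.976 times. The other lower genes were between 1.49 (Cipc) and 3.73 (Fbxw11) times the background there. With hepatocyte scaling only Usp2 stayed lower of the 7, and with library size alone Csnk1d, Cipc, Nono and Usp2 did. Leaving out a single library ended the call of Csnk1e in 3 of 6 fits and that of Fbxw11 in 4 of 6. Fbxl21 was higher (1.17, adjusted p = 0.0423, edgeR) but passed in only 5 of 15 other fits on the deposited counts. In the rest adjusted p was 0.0530 to 0.285 (edgeR and DESeq2). Its counts were 1.48, 2.40 and 2.68 times the expected background in the miR-206 libraries, against 1.15, 6.18 and 4.26 in the controls. After background subtraction alone it did not pass (2.01, adjusted p = 0.0804, edgeR).

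Of 14 genes with daily rhythms in mouse liver, 13 fell, with a median of -3.21, against 29.6% of all genes lower, and Wee1 was the exception (-0.91, adjusted p = 0.0931, edgeR). The largest falls were those of Por (-4.54), which encodes the electron donor of cytochromes P450, Lpin1 (-4.45), a phosphatidate phosphatase, and Gys2 (-4.08), liver glycogen synthase. Next came the glucocorticoid-induced Tsc22d3 (-3.88), the uridine phosphorylase gene Upp2 (-3.37), Alas1 (-3.30), whose enzyme limits haem synthesis, the cytochrome gene Cyp2a5 (-3.27) and Nampt (-3.16), of NAD salvage. Rgs16 (-3.07), the nuclear receptor gene Nr1i3 (-2.85), the cold-inducible Cirbp (-2.66), Noct (-2.52) and the fatty acid elongase gene Elovl3 (-1.77) fell by less. In the miR-206 libraries Noct (0.904 to 1.38 times) and Cirbp (0.845 to 1.75 times) were around the background. The others that fell were between 1.65 (Rgs16) and 32.3 (Elovl3) times the background there. Nr1i3 shares 74.9% of its exonic bases with Tomm40l on the opposite strand, so its value is uncertain. With hepatocyte scaling Por, Lpin1, Gys2 and Tsc22d3 stayed lower and the other 9 calls were lost, with Elovl3 at 0.24. Por, Elovl3 and Cyp2a5 were over 10 times the background in every library, so the background-corrected fit could test them without that selection. Por was lower there (-1.45, adjusted p = 0.0191, edgeR), a call lost without control 2, control 3 or miR-206 3 (adjusted p from 0.0671 to 0.0739). Elovl3 was higher (1.19, adjusted p = 0.0157), a call lost without the same libraries (0.0556 to 0.0650) and with library size alone (0.378) or hepatocyte scaling (0.730). Cyp2a5 did not pass (-0.24, adjusted p = 0.459). The TMM factors of that fit come from the genes it kept. After background subtraction alone, without the minimum, all 13 genes were lower, Elovl3 and Cyp2a5 included. Of the 19 hepatocyte markers, 14 were lower in the main fit.

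Clock genes are active in other liver cells too, and markers of several of these had lower scaled sums in the miR-206 libraries, as hepatocyte markers did. Kupffer cell markers summed to 43.5 to 55.8 scaled CPM in miR-206 libraries and 345 to 1558 in controls, with 10 of 10 lower. Sinusoidal endothelial markers summed to 95.6 to 102 and 370 to 431 (8 of 8 lower), stellate markers to 100 to 119 and 250 to 780 (4 of 8 lower), and cholangiocyte markers to 36.2 to 97.7 and 863 to 3075 (5 of 6 lower). B and plasma cell markers summed to 25.8 to 27.8 in miR-206 libraries and 442 to 470 in controls (4 of 6 lower, 1 higher). T and NK cell markers summed to 23.0 to 31.1 and 33.3 to 41.4 (1 lower and 1 higher of 5 tested). Neutrophil markers summed to 7.46 to 9.56 and 7.40 to 25.5 (2 of 4 lower), and red cell markers to 14.5 to 36.5 and 36.9 to 150 (1 of 3 lower). Across all genes tested 29.6% were lower and 25.8% were higher. The part of these cell types, of depth and of background in the falls of the clock genes was not tested.

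The promoters of the members, 250 bases before to 50 after each start in RefSeq (GRCm38.p6), were searched on both strands for the E-box CACGTG, the D-box core TTANGTA and AGGTCA, to which ROR and REV-ERB proteins bind. A promoter was found for 9 members, all but Per2. The E-box occurred in promoters of Per1, Cry1, Tef and Ciart, against 7.15% of all 32851 promoters, the D-box core in Per3 alone, against 6.76%, and AGGTCA in Clock, Per1 and Nfil3, against 16.3%. The units differ, because these shares are per promoter and a member was counted if any of its promoters held the motif. Clock had 3 promoters, and Per1 and Tef had 2 each. All 4 members with an E-box were lower, though the call of Cry1 was lost in 5 of 6 fits that left out a single library. Cry2, Dbp and Nfil3, without an E-box in this window, were lower too. Across all genes tested 29.6% were lower. Ciart is shown because its window holds 3 E-boxes, Per1 because it holds both an E-box and AGGTCA (read as TGACCT on this strand), and Per3 because it is the member with D-box cores and did not pass the test. Motifs are in capitals, and the windows are chr3:95882179-95882478 (minus strand) for Ciart, chr11:69098699-69098998 (plus strand, inside the annotated span of the gene) for Per1 and chr4:151044616-151044915 (minus strand) for Per3.
Ciart: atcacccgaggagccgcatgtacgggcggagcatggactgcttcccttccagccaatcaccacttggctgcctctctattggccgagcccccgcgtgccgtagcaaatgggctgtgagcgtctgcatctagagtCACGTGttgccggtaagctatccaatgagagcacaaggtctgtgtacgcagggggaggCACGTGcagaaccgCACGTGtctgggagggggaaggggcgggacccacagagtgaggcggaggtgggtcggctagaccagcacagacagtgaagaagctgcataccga
Per1: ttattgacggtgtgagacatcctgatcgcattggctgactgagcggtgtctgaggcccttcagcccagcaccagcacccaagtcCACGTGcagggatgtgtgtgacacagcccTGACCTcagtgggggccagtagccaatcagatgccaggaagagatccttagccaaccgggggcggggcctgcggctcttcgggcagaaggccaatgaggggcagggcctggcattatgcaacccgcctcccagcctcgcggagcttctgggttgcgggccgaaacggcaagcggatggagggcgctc
Per3: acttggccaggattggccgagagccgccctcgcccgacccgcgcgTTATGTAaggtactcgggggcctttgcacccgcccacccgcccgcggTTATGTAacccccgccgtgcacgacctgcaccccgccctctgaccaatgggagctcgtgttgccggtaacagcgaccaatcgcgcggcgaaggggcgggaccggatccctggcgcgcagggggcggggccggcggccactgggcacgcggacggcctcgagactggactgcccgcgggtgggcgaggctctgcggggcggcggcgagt
The E-boxes of Ciart begin 116, 58 and 44 bases before the start, that of Per1 166 bases before it, and the D-box cores of Per3 205 and 158 bases before it. A match says nothing of binding, and no factor was measured here.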

How the data were processed

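Gene counts were measured by bulk RNA sequencing in 6 libraries of sorted mouse hepatocytes, made per the labels from total RNA with a SMARTER mRNA kit. The authors deposited raw counts per Ensembl gene, all whole numbers, with no normalisation. The builds, from the submitters' processing notes, are GRCm 38 and mm 10. Aligner, counting program, annotation release and strand setting were each not given in the sources used here. Of 49315 genes, 49056 matched GENCODE M21 by identifier, which gave positions and exonic lengths.

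Genes kept by filterByExpr (minimum count 10) were scaled by TMM and tested with the quasi-likelihood F test of edgeR 4.0.16 (R 4.3.3, robust, group as the only term), adjusted by Benjamini-Hochberg over all genes tested. SE is the log2 fold change divided by the square root of F. Expected background was the counts of 1915 receptor genes per exonic kb times a gene's exonic length. Alternatives were RLE, upper-quartile, library-size and hepatocyte-marker scaling, no filter, DESeq2 1.42.0, mitochondrial genes left out, background subtraction alone and with the 10-fold minimum, each library left out, and a replicate block. Of these steps only the main edgeR fit with TMM factors was tested on simulated counts. The simulation had few changed genes and no difference in background between groups, unlike these data. Replicate numbers were not treated as pairs in the main fit, and nothing in the labels ties a library to a mouse. Same-numbered libraries deviated together with correlations of 0.0071, 0.0185 and -0.0060, which do not settle whether they are pairs. No 2 libraries of the same group agreed within sampling noise.

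The members, lists and marker genes were chosen with earlier results of these data known. The members were named throughout, other clock genes mainly where they passed the test, and for Tef the 5 tested genes most like it with a mean of at least 5 CPM. Genes that did not pass and are named (Wee1, Bhlhe41) were chosen after their values were seen. A few listed genes are not reported here. Intervals and limits on counts hold counting error alone, because without molecular identifiers several reads can come from the same molecule.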

Additional observations from a re-analysis of the deposited data

How the results depend on the processing

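The count of members that fell was 8, and it was 7 to 10 when a single library was left out, 7 to 9 with RLE, upper-quartile or library-size scaling, DESeq2, no filter, no mitochondrial genes or background subtraction alone. It was 1 with hepatocyte scaling, with 1 member higher. In the background-corrected fits, where 4 members passed the minimum through their controls alone so that this is no count over the members, it was 2 with TMM (1 higher), 2 with hepatocyte scaling and 2 with library size alone. Over all fits that left out a library, corrected ones included, members lower ran from 0 to 10 and members higher from 0 to 1. With the replicate number as a block 8 members were lower, and 6697 genes were lower and 5362 higher in all. The deviations of miR-206 1 and miR-206 2 correlated best with those of the same-numbered control (0.0071 and 0.0185), and those of miR-206 3 with control 1 (0.0091). Correlations this small do not settle whether the numbers mark pairs.

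Signs turned as follows, in log2 fold change. With hepatocyte scaling Clock was 2.01, Per2 0.16, Per3 1.25, Cry1 0.61, Csnk1e 0.50, Csnk1a1 0.41, Fbxw11 0.99 and Elovl3 0.24. With library size alone Clock was 0.86 and Per3 0.37, with upper-quartile factors 0.68 and 0.16, and after subtraction alone Clock was 0.35. In the background-corrected fit Per3 was 1.88, Ciart 0.15, Bhlhe40 0.28, Csnk1a1 0.89 and Elovl3 1.19. With hepatocyte scaling added Per3 was 1.01 and Elovl3 0.19, and with library size alone Per3 was 1.15, Csnk1a1 0.097 and Elovl3 0.34. Over all fits that left out a library, values ran from -3.94 to 0.031 for Alas1, -2.66 to 0.57 for Bhlhe40, -2.97 to 0.29 for Ciart, -2.17 to 0.84 for Csnk1a1, -2.07 to 1.35 for Elovl3, -1.57 to 1.51 for Fbxw11, -2.79 to 0.060 for Nr1d2, -2.20 to 0.19 for Per2, -0.87 to 1.87 for Per3 and -3.94 to 0.17 for Upp2. In these the positive ends came from corrected fits, which Bhlhe40, Ciart, Csnk1a1, Fbxw11, Nr1d2, Per2 and Per3 entered through their controls alone. The cause was not tested. Depth limits Nfil3 and Dbp most, with 3 counts and 9 to 13 counts per miR-206 library.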
